A study of Mus musculus with 12 samples.

Results

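Mouse hepatic stellate cells without hexokinase 2 were compared with and without added lactate. The comparison rests on 6 of the 12 RNA sequencing libraries of the study, 3 of Hk2-deleted cells (KO) and 3 of Hk2-deleted cells given 10 mM lactate for 24 h (LAC), chosen by their labels, and on all 12081 listed genes. Every mouse carried Hk2 alleles flanked by recombination sites (Hk2 fl/fl), the controls included. KO and LAC cells both received an adenovirus that expresses Cre recombinase fused to a green fluorescent protein (eGFP), control activated cells (ACT) received a virus with eGFP alone, and all 3 groups were cultured for 6 days in a glucose medium with serum. ACT is set beside KO and LAC as a description only, and freshly isolated quiescent cells (QS) entered the estimate of the spread and the principal components. The sources used here do not give the age of the mice, the time of the lactate within the culture, or whether each library stands for its own mouse or culture, so the tests below speak of the spread between libraries and not necessarily between animals. Isolation of the cells on a density gradient leaves room for other liver cells.

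Stellate cells are pericytes that lie beside the liver sinusoids, store vitamin A, and turn into contractile, collagen-secreting myofibroblasts when they are activated. Hexokinase 2 traps glucose in the cell as glucose 6-phosphate at the entry of glycolysis, and lactate is made at its far end by lactate dehydrogenase and crosses the plasma membrane through monocarboxylate transporters. Lactate is both a fuel, once it is turned back into pyruvate, and a source of lactyl groups on histone lysines. The study asked whether lactate brings back what is lost with the enzyme.

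Levels are read counts normalized to library size (CPM). A gene is called at an adjusted p under 0.05 in limma, a linear model fitted across all genes, with Benjamini-Hochberg adjustment. Log2 fold changes are LAC over KO on log2(CPM + 1), which understates the change of low genes. The estimated depth was 5.85 to 11.64 M (megareads) in KO and 8.67 to 11.05 M in LAC, and genes of at least 200 CPM had a median coefficient of variation of 4.16% in KO and 2.42% in LAC. The first principal component of all 12 libraries held 61.5% of the variance. On it the LAC libraries lay at -44.4 to -44.3, the KO libraries at -12.5 to -12.4 and the ACT libraries at -55.1 to -54.7. The QS libraries lay at 110.0 to 112.6. On the second, which held 28.1%, the LAC libraries lay at -13.6 to -13.4, the KO libraries at -64.5 to -62.2 and the ACT libraries at 59.4 to 60.0. Of 12081 genes 4957 (41.0%) were called, 2415 (20.0%) higher and 2542 (21.0%) lower in LAC. Changes of at least 2-fold were fewer, with 618 genes (5.12%) higher and 264 (2.19%) lower, and the libraries of the groups did not overlap in 6302 genes (52.2%). The median change of all genes was -0.02 and the called genes had a median absolute change of 0.44. Counts of gene lists below are read against these shares.

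Hk2 itself (chr6:82725025-82774454, minus strand, mm10) was 10.7, 13.7 and 11.9 CPM in the KO libraries and 18.7, 19.6 and 19.7 CPM in the LAC libraries. Every LAC library lay above every KO library. The log2 fold change was 0.64 (adjusted p = 1.66e-05), and a two-sided exact permutation test of the 6 values gave p = 0.1, which is the lowest value possible with 3 libraries a group. The removed exons are not named in the labels, so reads of the deleted allele may be among these. Hk1, the hexokinase that most cells express, was 209 ± 11.2 CPM in KO and 225 ± 9.91 CPM in LAC and was not called (adjusted p = 0.107).

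**Figure D1:**
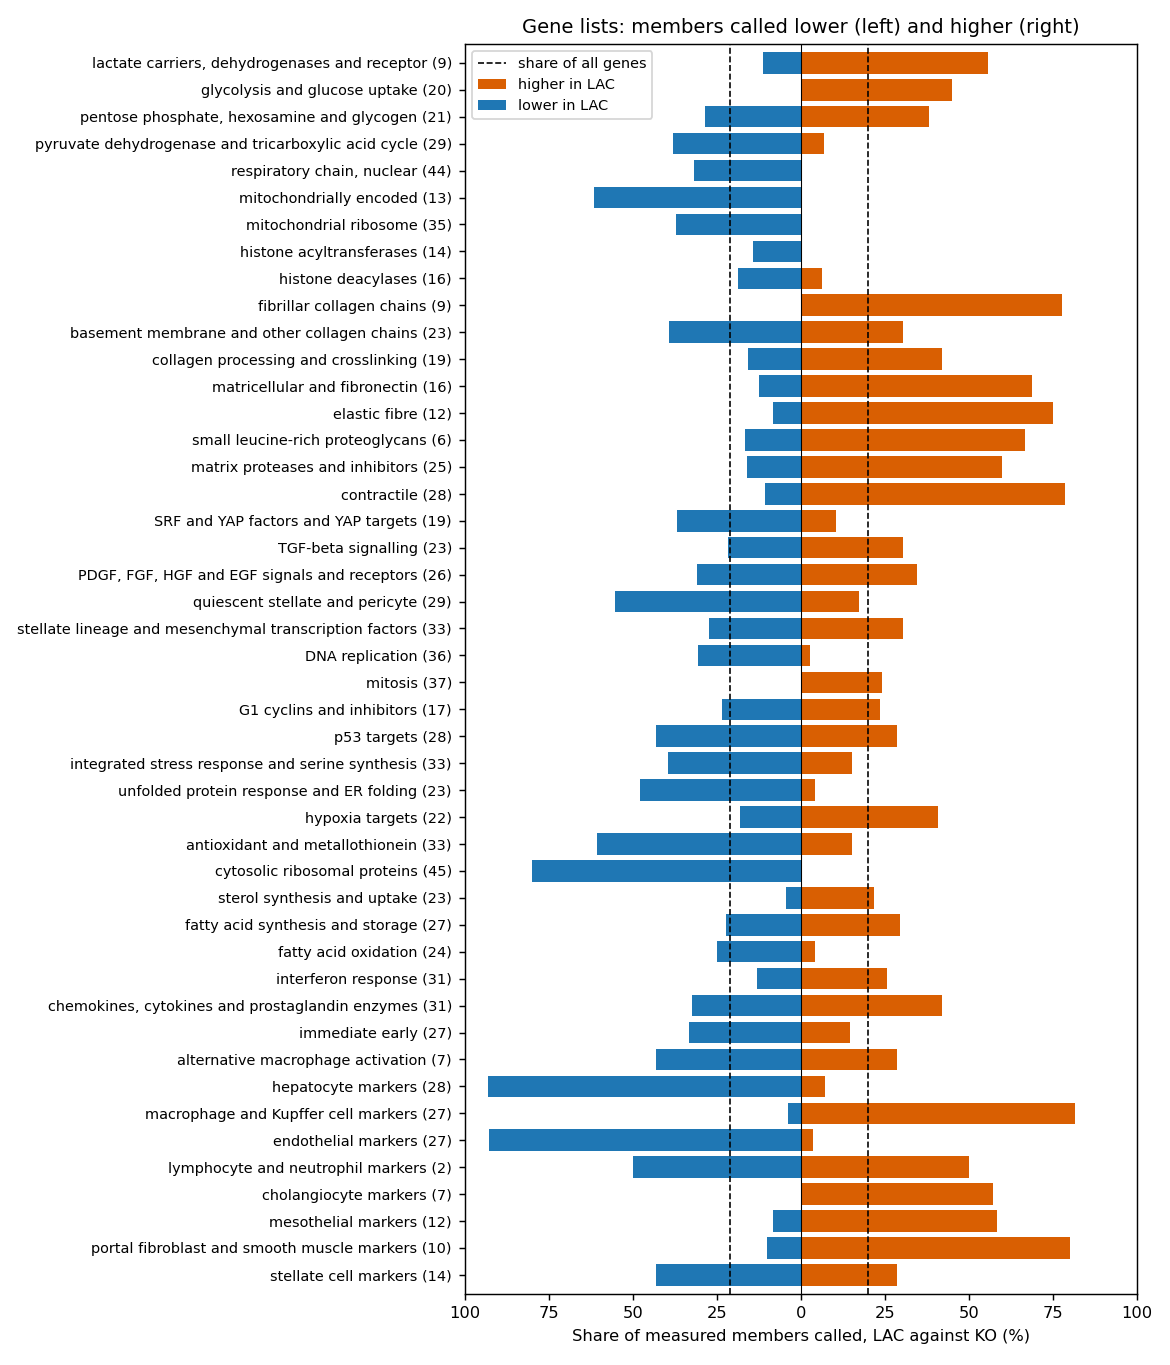
Share of the measured members of each gene list called lower (left, blue) and higher (right, orange) in LAC than in KO, in percent, with the number of members in parentheses and dashed lines at the share of all 12081 genes (21.0% lower, 20.0% higher). Macrophage markers, portal fibroblast and smooth muscle markers, contractile genes and fibrillar collagens reach farthest to the right, and hepatocyte markers, endothelial markers and cytosolic ribosomal proteins farthest to the left.

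Markers of other liver cells differed strongly between the groups, and they are given before the results they may touch. Of 27 macrophage and Kupffer cell markers 22 were higher and 1 lower in LAC (median 3.66), and their summed level was 330.6 to 342.4 CPM in the KO libraries, 7241 to 7298 CPM in LAC and 25800 to 26395 CPM in ACT. Itgam, which encodes the integrin chain CD11b, was 3.82, 5.77 and 3.85 CPM in KO and 237, 241 and 229.7 CPM in LAC. Lyz2, the macrophage lysozyme, was 70.3, 68.7 and 72.1 CPM in KO and 2216, 2265 and 2240 CPM in LAC, and 9350 ± 161 CPM in ACT. Both groups of libraries were far apart for these genes and tight within themselves. The 15 genes with the largest rises were Itgam, Lyz2, Cybb, Ctss, Itgax, Mpeg1, Atp6v0d2, Fcgr3, Myo1f, Tlr8, Cd300ld, Gpnmb, Clec4d, Nckap1l and Dock2, with log2 fold changes from 4.32 to 5.45, and most of them are known for their expression in myeloid cells. The 1 member that fell was Clec4f, a lectin of resident Kupffer cells, from 3.62 ± 0.4901 to 0.784 ± 0.0887 CPM (log2 fold change -1.37). Aif1 was at 0.731, 0 and 0 CPM in KO and at 1.51, 1.89 and 1.797 CPM in LAC and was not called, nor were Vsig4 (0.23), Cd5l (-0.16) and Timd4 (-0.23), the last listed at 0 in all LAC libraries. The smallest rise, named after the values were seen, was 0.50 for Marco, a scavenger receptor of macrophages. In such bulk samples more cells of a type and more RNA per cell cannot be told apart. The part of other liver cells in the changes of any gene or list below was not tested, also where this is not repeated.

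Hepatocyte and endothelial markers were lower. Of 28 hepatocyte markers 26 fell and 2 rose (median -3.05). Alb, the gene of albumin, was 154, 161 and 156 CPM in KO and 0.622, 0.844 and 0.338 CPM in LAC. In LAC 26 of the 28 markers had a mean under 1 CPM and 8 were listed at 0 in every library, among them Cyp2e1, Ahsg and Hnf4a. Those that rose were Trf, the gene of transferrin (log2 fold change 0.57), and Ass1, an enzyme of the urea cycle (0.17), whose call was lost without KO replicate 3, LAC replicate 1 or LAC replicate 2 (adjusted p up to 0.0931). Several of the 15 largest falls, such as Mup7 (-5.84), Mup22 (-5.71) and Serpina1e (-5.31), belong to families of near-identical genes that share reads, so their single values are uncertain. Of 27 endothelial markers 25 fell and 1 rose (median -1.05), with a summed level of 11451 to 12736 CPM in KO, 6188 to 6418 CPM in LAC and 1007 to 1033 CPM in ACT. Clec4g, a lectin of the sinusoidal endothelium, was 109, 118 and 114 CPM in KO and 47.4, 48.4 and 56.8 CPM in LAC, with no overlap. Dnase1l3 (-2.34), Gpr182 (-1.41) and Bmp2 (-1.41) were the largest falls, 16 of the 25 falls were at least 2-fold, and the exception was Vwf, the gene of von Willebrand factor, which rose from 1.501 ± 0.498 to 5.28 ± 0.989 CPM.

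Markers of stellate cells were present in all libraries. Their sum was close between KO (2571 to 2827 CPM) and LAC (2492 to 2576 CPM) and lower in ACT (1648 to 1669 CPM). Among 14 such markers 4 rose and 6 fell (median -0.29). The largest changes were falls, of Colec11 (-1.65), a collectin, Cygb (-1.52), a globin of stellate cells, and Ngfr (-0.77), a neurotrophin receptor. Pdgfrb, the platelet-derived growth factor receptor of mesenchymal cells, rose from 134 ± 4.96 to 159 ± 4.08 CPM (log2 fold change 0.25). Lrat, which esterifies retinol for storage, was 16.6, 19.9 and 15.5 CPM in KO and 14.4, 11.8 and 15.8 CPM in LAC and was not called (adjusted p = 0.0882). Des, the gene of desmin, stood at 178 ± 9.76 and 186 ± 13.1 CPM (log2 fold change 0.07, adjusted p = 0.551). Portal fibroblast and smooth muscle markers were higher in 8 and lower in 1 of 10 cases (sum 491.4 to 520.8 CPM in KO, 998.3 to 1066 CPM in LAC, 1520 to 1571 CPM in ACT). Of 12 mesothelial markers 7 rose and 1 fell (146.2 to 157.9, 197.4 to 201.7 and 478.5 to 513.8 CPM). Of 7 cholangiocyte markers 4 rose and none fell, where Spp1 makes up most of the sum (188.4 to 193.7, 1105 to 1125 and 5008 to 5173 CPM). In these 3 lists the sum in LAC lay between KO and ACT. Wt1, a transcription factor of mesothelium, was 0.896 ± 0.261 CPM in KO and 5.89 ± 0.691 CPM in LAC. The portal and smooth muscle list shares Actg2, Cnn1, Myh11 and Smtn with the contractile list and Fbln2 with the matricellular list. Of 2 lymphocyte and neutrophil markers listed, S100a8 rose (1.00) and Cd3d fell (-0.61), the latter no longer called without KO replicate 2 or 3 or LAC replicate 2 or 3 (adjusted p up to 0.112).

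**Figure D2:**
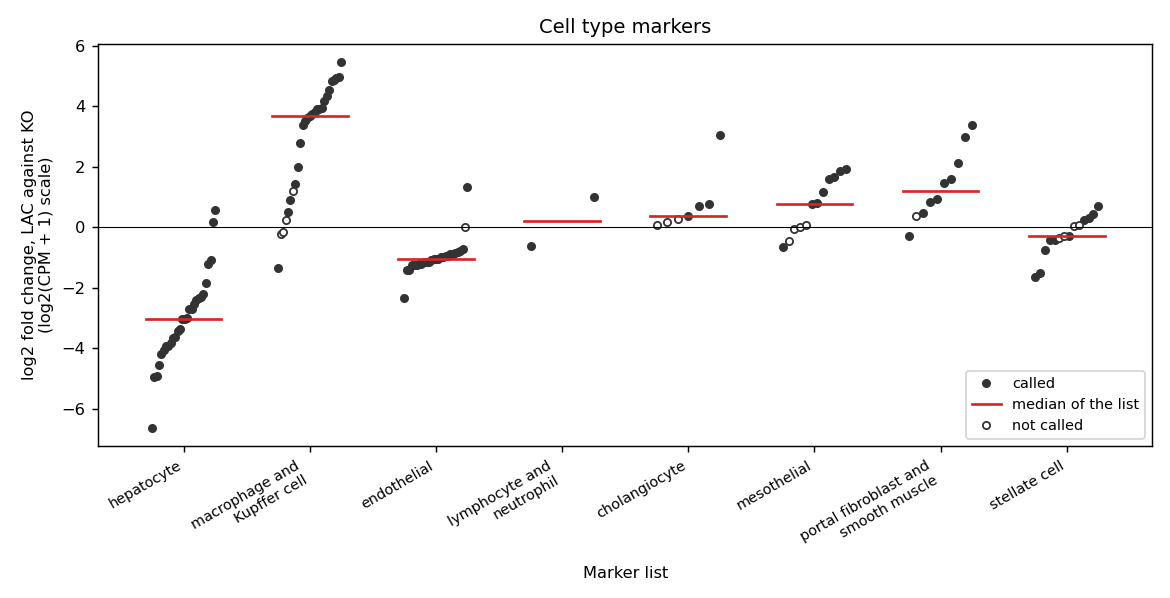
Log2 fold change of each marker gene, LAC against KO, by cell type list. Filled points are called genes, open points are not, and red lines are the medians, from -3.05 for hepatocytes to 3.66 for macrophages, with -0.29 for stellate cells.

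Contractile genes were higher with lactate. Of 28 measured members 22 rose and 3 fell, a share of 78.6% higher against 20.0% of all genes, with a median of 0.45. Cnn1 (chr9:22099216-22109630, plus strand, mm10), which encodes the actin-binding calponin of smooth muscle, was 8.61, 10.9 and 8.91 CPM in KO, 91.9, 79.2 and 73.1 CPM in LAC and 171, 183 and 179 CPM in ACT. The LAC libraries lay between the other groups and overlapped neither. Its log2 fold change was 2.98 (SE 0.139, limma adjusted p = 7.62e-10). Lmod1, a leiomodin that nucleates actin filaments, was 11.1, 12.03 and 10.2 CPM in KO and 61.5, 54.99 and 53.8 CPM in LAC (log2 fold change 2.25, adjusted p = 3.07e-10). Actg2, the enteric smooth muscle actin, was 1.61, 2.96 and 0 CPM in KO and 27.97, 16.5 and 22.6 CPM in LAC (log2 fold change 3.39), so the KO libraries stayed near the limit of detection and the LAC libraries lay above them with some spread. Acta2 was 675, 665 and 620.1 CPM in KO and 1469, 1432 and 1401 CPM in LAC.

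Myh11, the smooth muscle myosin heavy chain, was 31.2, 30.6 and 27.1 CPM in KO and 138, 129.5 and 128 CPM in LAC. The groups were far apart. The log2 fold change was 2.12 and the adjusted p 0.019 in a model that shares its spread over all groups, where the QS libraries ran from 0 to 11.2 CPM. The adjusted p was 1.92e-08 with only KO and LAC in the model and 0.0503 without LAC replicate 1. Further members were named after their values were seen. Tpm2, a tropomyosin, rose from 110.4 ± 2.22 to 255 ± 5.38 CPM (1.20), Myl9, the regulatory myosin light chain, from 184 ± 6.91 to 319 ± 10.4 CPM (0.79), and Tagln, the gene of transgelin, from 635 ± 6.64 to 886 ± 8.64 CPM (0.48). The members that fell were Actn4 (-0.41), a non-muscle alpha-actinin, Smtn (-0.30), the gene of smoothelin and itself one of the smooth muscle markers, and Tpm4 (-0.12), a tropomyosin. Macrophage and smooth muscle markers rose with these genes, as given above, and their part in the result was not tested.

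Promoters of members with a CArG box, the motif that serum response factor binds, are shown because this factor drives smooth muscle genes. The strict box was searched on either strand in the 250 bases before the annotated start, from RefSeq on GRCm38.p6, where 25 of the 28 members had an entry. It was found in 4 of 28 windows of the list (14.3%) and in 482 of all 32851 RefSeq windows (1.47%), whether or not their genes were tested here. The members were Acta1, Cnn2, Myl9 and Vcl, the last being the gene of vinculin. Those with the largest rises, Actg2 (3.39), Cnn1 (2.98), Lmod1 (2.25) and Myh11 (2.12), were not among them. A match of letters was not tied to binding in these cells. The capitals mark the box, which starts 73 bases before the start site in Acta1 (chr8:123894776-123895025, minus strand) and 161 bases before it in Myl9 (chr2:156775214-156775463, plus strand).
Acta1: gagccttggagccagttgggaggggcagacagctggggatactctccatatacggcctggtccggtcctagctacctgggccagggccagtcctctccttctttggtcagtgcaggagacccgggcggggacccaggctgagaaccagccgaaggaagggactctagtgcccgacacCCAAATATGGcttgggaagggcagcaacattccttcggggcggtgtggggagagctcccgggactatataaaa
Myl9: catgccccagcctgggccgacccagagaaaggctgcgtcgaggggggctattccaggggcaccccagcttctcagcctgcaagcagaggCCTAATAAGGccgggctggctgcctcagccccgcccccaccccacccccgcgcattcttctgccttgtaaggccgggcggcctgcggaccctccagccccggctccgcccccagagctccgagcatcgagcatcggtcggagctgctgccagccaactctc
Acta1, the skeletal muscle actin, rose from 7.25 ± 1.67 to 15.2 ± 0.373 CPM (0.99), Vcl from 480.3 ± 4.68 to 642 ± 3.98 CPM (0.42) and Cnn2 from 386 ± 9.63 to 429 ± 13.00 CPM (0.15). Srf, the gene of serum response factor, was not called (-0.21). Mkl1, Mkl2 and Myocd, fixed in the same list, were not listed under these symbols. Of 19 genes of serum response factor and YAP signalling and YAP targets 2 rose and 7 fell (median -0.07). These counts speak mostly of the YAP part. The rises were Tead1 (0.36), a DNA-binding partner of YAP, and Yap1 itself (0.14), which was not called without KO replicate 2, LAC replicate 1 or LAC replicate 3 (adjusted p up to 0.0784), leaving 1. Tead4 (-0.71), Nt5e (-0.53) and Dlc1 (-0.33) fell.

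In the list of fibrillar collagen chains, which build the fibres of scar tissue, 7 of 9 members rose and none fell (77.8% higher, median 0.84). Col12a1 (0.70) and Col14a1 (0.30), counted among these rises, are chains of fibril-associated collagens and not fibrillar chains themselves. Col11a1 (chr3:114030540-114220718, plus strand, mm10), a chain of the minor fibrillar type XI, was 17.1, 13.98 and 15.6 CPM in KO, 91.5, 93.5 and 97.2 CPM in LAC and 42.6, 42.2 and 44.02 CPM in ACT. Here the LAC libraries exceeded not only KO but also ACT. The log2 fold change was 2.52 (SE 0.0965, adjusted p = 9.73e-11). Col5a2, a chain of type V that controls fibre width, was 703, 713 and 652 CPM in KO and 1420, 1419 and 1365 CPM in LAC (log2 fold change 1.02). The chains of types I and III are drawn in the plot of contractile and matrix genes. They rose by 0.84 (Col1a1), 1.70 (Col1a2) and 1.41 (Col3a1) on the log2 scale. Their LAC means were 50.4%, 20.9% and 69.1% of ACT. Portal fibroblast, smooth muscle and mesothelial markers rose as well, as given above. Their part in the rises of matrix genes, here and below, was not tested.

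Chains of other collagens and of the basement membrane, the sheet under epithelium and endothelium, went both ways, with 7 of 23 higher and 9 lower (median -0.16). Col15a1, a collagen at the border of basement membranes, was 0, 0.122 and 0.3304 CPM in KO and 9.06, 9.29 and 11.1 CPM in LAC. Lama2, a laminin chain of muscle and mesenchyme, was 21.2, 15.98 and 16.98 CPM in KO and 80.04, 88.8 and 80.4 CPM in LAC (log2 fold change 2.15). Col8a1 was 44.7, 49.1 and 43.4 CPM in KO, 197, 201 and 202 CPM in LAC and 168, 178 and 162 CPM in ACT, so that LAC was highest. Col4a5 rose as well (1.80). The chains that fell included those that endothelium also makes, and the endothelial markers were lower in LAC. The chains that rose did so together with the portal fibroblast and mesothelial markers. The part of these cells in either direction was not tested.

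**Figure D3:**
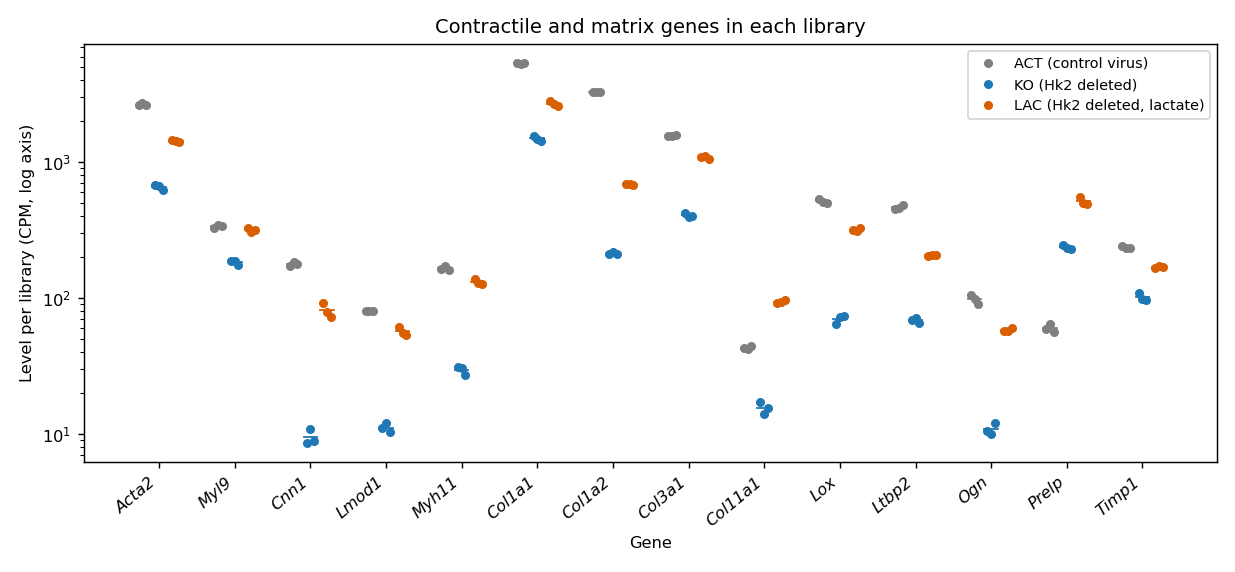
Level of 14 contractile and matrix genes in every ACT, KO and LAC library (CPM, log axis); points are libraries and short lines are group means. LAC lies between KO and ACT for most genes, and above both for Col11a1 and Prelp.

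Genes that process collagen were higher in 8 and lower in 3 of 19 cases (median 0.22). Only 6 were higher whichever KO or LAC library was left out. Lox, the lysyl oxidase that starts the crosslinking of collagen and elastin, was 64.4, 73.2 and 74.2 CPM in KO and 316, 313 and 326 CPM in LAC. Its LAC libraries stood clear of KO and its log2 fold change was 2.16 (SE 0.0989, adjusted p = 6.51e-10). P4ha3, a prolyl hydroxylase subunit, rose from 1.27 ± 0.578 to 6.09 ± 1.95 CPM (1.64), Plod2, the lysyl hydroxylase of the collagen ends, from 143 ± 12.9 to 235 ± 2.82 CPM (0.72) and Loxl1 from 11.7 ± 2.09 to 17.6 ± 1.32 CPM (0.57). Tgm2, the tissue transglutaminase, fell (-0.24). So did Plod1 (-0.18) and Crtap (-0.14), but these 2 were not called without KO replicate 2 or LAC replicate 3, which left 1 fall, and the call of Crtap was also lost without KO replicate 1, KO replicate 3 or LAC replicate 2 (adjusted p up to 0.0772 for Plod1 and 0.157 for Crtap).

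Matricellular genes, whose secreted products tune how cells grip the matrix, were higher in 11 and lower in 2 of 16 cases (median 0.64). Thbs2, a thrombospondin, was 58.3, 65.3 and 60.2 CPM in KO, 149, 154 and 145 CPM in LAC and 24.5, 21.4 and 22.01 CPM in ACT, again highest in LAC (log2 fold change 1.27). Fn1, fibronectin, was 770.5, 732 and 650.1 CPM in KO and 2189, 2063 and 1981 CPM in LAC, and Ccn5, a member of the connective tissue growth factor family, rose from 0.934 ± 0.765 to 4.77 ± 0.509 CPM. Spp1 rose by 3.06. Fn1 and Spp1 are also expressed by macrophages, whose markers rose by more (median 3.66). Tgfbi, a collagen-binding protein induced by TGF-beta, fell from 71.1 ± 4.204 to 31.6 ± 3.94 CPM (-1.15) and Ccn1 fell by 0.12, which was not called without KO replicate 3, LAC replicate 1 or LAC replicate 3 (adjusted p up to 0.0794), leaving 1.

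Elastic fibre genes were higher in 9 and lower in 1 of 12 cases (median 0.39). Ltbp2, a latent TGF-beta binding protein of microfibrils, was 69.1, 70.9 and 65.98 CPM in KO and 203, 206 and 208 CPM in LAC (log2 fold change 1.57, adjusted p = 5.67e-09). Emilin2 was 5.01, 3.296 and 2.802 CPM in KO and 40.3, 42.1 and 37.6 CPM in LAC, and Mfap5, a microfibril protein, 0.274, 3.35 and 3.02 and 8.81, 8.72 and 7.53 CPM. These libraries did not overlap. Ltbp4 was the member that fell (-1.12). Of 6 small leucine-rich proteoglycans, which coat collagen fibrils, 4 rose and 1 fell. Ogn, osteoglycin, was 10.6, 10.1 and 12.1 CPM in KO and 57.6, 57.4 and 60.5 CPM in LAC. Prelp, a binder of basement membrane and collagen, was 246, 234 and 231 CPM in KO, 553, 502 and 492 CPM in LAC and 58.9, 63.96 and 56.7 CPM in ACT, so KO lay above ACT and LAC above both. Dcn, decorin, rose from 255 ± 16.2 to 411 ± 16.7 CPM and Bgn by 0.17, while Lum fell by 0.32, a call lost without LAC replicate 1 (adjusted p = 0.0625), which left none.

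Genes of matrix breakdown and its inhibitors mostly rose as well, 15 of 25 higher and 4 lower (median 0.49). With each library left out in turn 12 to 14 were higher. Mmp12, the macrophage elastase, was 25.8, 27.6 and 27.8 CPM in KO and 474, 476 and 460.5 CPM in LAC. Mmp9, which myeloid cells also make, was 0.4903, 1.101 and 0.246 CPM in KO and 5.59, 4.65 and 4.502 CPM in LAC. These rises came with those of the macrophage markers, and the part of those cells was not tested. Mmp13, the interstitial collagenase of rodents, was 31.2, 34.1 and 33.8 CPM in KO, 90.7, 89.9 and 92.4 CPM in LAC and 64.2, 61.8 and 62.2 CPM in ACT. Mmp19 rose by 1.86 and Timp1, a metalloproteinase inhibitor, by 0.74. Timp3, an inhibitor bound to the matrix that was named after its values were seen, was 2118, 2068 and 2059 CPM in KO, 3605, 3606 and 3578 CPM in LAC and 1835, 1839 and 1790 CPM in ACT, with LAC above the other groups. The plasminogen activation genes Plaur (-0.77) and Plau (-0.23) and the proteases Adamts1 (-0.62) and Adamts9 (-0.29) fell.

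Signals that act on stellate cells were mixed. Of 23 genes of TGF-beta signalling, the main fibrogenic pathway, 7 rose and 5 fell, near the share of all genes, and the median of -0.03 became 0.02 with median ratio scaling. Among the ligands, Tgfb3 was 63.5, 62.5 and 56.7 CPM in KO and 165, 171 and 160.5 CPM in LAC (log2 fold change 1.43), Tgfb2 rose by 1.02, and Inhba, an activin subunit, by 1.06. Tgfb1, the ligand most tied to fibrosis, was 152, 144 and 124 CPM in KO and 131, 113 and 110.0 CPM in LAC; it fell by 0.24 (adjusted p = 0.0239), a call lost without KO replicate 1 or 2 or LAC replicate 2 or 3 (adjusted p up to 0.106). The receptor genes Tgfbr3 (-0.97) and Eng (-0.77, also an endothelial marker) fell, as did Inhbb (-0.50) and Smurf2 (-0.23). Of 26 genes of growth factors and their receptors 9 rose and 8 fell. Igf1, a growth factor that macrophages also secrete, was 11.6, 11.04 and 14.8 CPM in KO and 102, 105 and 109 CPM in LAC (log2 fold change 2.99). Met, the hepatocyte growth factor receptor, rose from 29.7 ± 5.098 to 59.7 ± 5.21 CPM, Vegfa from 78.8 ± 6.903 to 141 ± 5.59 CPM, and Igfbp5 fell from 4.202 ± 2.16 to 0.561 ± 0.578 CPM. Pdgfra, named after its values were seen, was 228 ± 2.12 and 235 ± 5.66 CPM and was not called (adjusted p = 0.367).

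Genes of quiescent stellate cells and pericytes were lower in 16 and higher in 5 of 29 cases (median -0.43). Colec10, a collectin of stellate cells, was 9.82, 10.1 and 10.4 CPM in KO and 0.266, 0.528 and 0.338 CPM in LAC (log2 fold change -3.01). Vipr1, a neuropeptide receptor, was 24.01, 25.2 and 25.5 CPM in KO and 5.28, 4.64 and 4.05 CPM in LAC. Rbp4, the plasma carrier of retinol, which hepatocytes also make, fell from 6.67 ± 0.956 to 0.409 ± 0.0488 CPM, and Angptl6 by 1.75. Colec11 (-1.65) and Cygb (-1.52), the gene of the stellate cell globin, fell too. Among those that rose were Prelp (1.12), Hand2 (0.45), Bmp10 (0.31) and Ecm1 (0.31). Hepatocyte and endothelial markers fell together with the list, and their part was not tested. Of 33 transcription factors of the stellate and mesenchymal lineages 10 rose and 9 fell. Prrx1, a mesenchymal homeobox factor, was 22.5, 25.7 and 25.7 CPM in KO, 71.9, 80.1 and 73.7 CPM in LAC and 90.5, 88.5 and 82.8 CPM in ACT (log2 fold change 1.57, adjusted p = 8.40e-07), Runx2 rose by 0.82 and Tbx18 by 0.75, and Nr2f1 fell by 1.02.

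Genes that move lactate over the membrane changed in opposite directions. Of 9 measured genes of lactate transport and conversion 5 rose and 1 fell (median 0.14). Slc16a3, the transporter MCT4 of glycolytic cells, was 15.4, 16.6 and 14.2 CPM in KO, 46.4, 46.8 and 45.7 CPM in LAC and 34.9, 35.7 and 36.7 CPM in ACT. LAC was thus the highest of the groups (log2 fold change 1.53, SE 0.0861, adjusted p = 6.02e-09). Slc16a1, the widely expressed transporter MCT1, was 52.3, 53.6 and 55.97 CPM in KO and 33.8, 33.1 and 38.4 CPM in LAC, without overlap (log2 fold change -0.61, adjusted p = 6.19e-06). Slc16a7, the high-affinity MCT2, was 1.01, 0.494 and 0.997 CPM in KO and 5.09, 5.74 and 5.47 CPM in LAC, against 19.6 ± 1.53 CPM in ACT. Its chaperone Emb rose from 7.63 ± 0.789 to 17.2 ± 3.06 CPM, against 42.8 ± 3.9 CPM in ACT. The summed macrophage markers also lay between KO and ACT in LAC. The part of those cells in the rises of this list was not tested. Bsg, the chaperone of MCT1 and MCT4, rose by 0.14. Ldha, the dehydrogenase subunit that favours making lactate, was 582, 586 and 596 CPM in KO and 756, 766 and 740.1 CPM in LAC (log2 fold change 0.36, adjusted p = 7.51e-07). Ldhb, the subunit that favours using it, was 29.8, 30.5 and 31.1 and 28.1, 28.1 and 24.3 CPM and was not called (adjusted p = 0.0847), nor was Mpc1, a subunit of the mitochondrial pyruvate carrier (-0.24, adjusted p = 0.0541). Without KO replicate 2 the list had 2 falls.

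**Figure D4:**
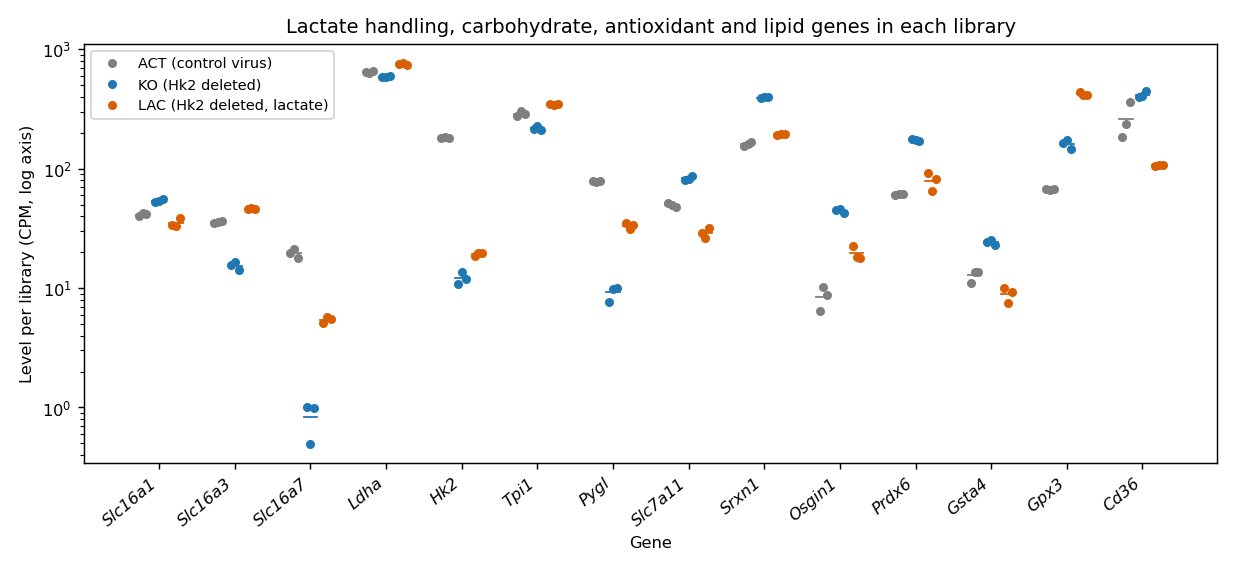
Level of 14 genes of lactate handling, carbohydrate use, antioxidant defence and lipid uptake in every ACT, KO and LAC library (CPM, log axis); points are libraries and short lines are group means. LAC lies below KO for Slc16a1, Slc7a11, Srxn1, Osgin1, Prdx6, Gsta4 and Cd36 and above KO for the others.

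Glycolysis genes rose in 9 of 20 cases and fell in none (median 0.21). Tpi1, triose phosphate isomerase, was 216, 228 and 212 CPM in KO and 351, 339.5 and 344 CPM in LAC, above the 288 ± 13.4 CPM of ACT (log2 fold change 0.66). Hk3, the hexokinase of myeloid cells, rose from 2.58 ± 1.17 to 36.3 ± 3.07 CPM along with the macrophage markers. Pfkfb2 (0.76), a regulator of phosphofructokinase, and Pfkp (0.41), a form of that enzyme, rose. But Pfkfb2 was not called without KO replicate 2 or any LAC replicate (adjusted p up to 0.0836). Pfkp was not called without KO replicate 3 or LAC replicate 1 (up to 0.0723). In the pentose phosphate, hexosamine and glycogen pathways 8 of 21 rose and 6 fell. Pygl, a glycogen phosphorylase, was 7.64, 9.88 and 10.1 CPM in KO and 35.3, 31.04 and 33.5 CPM in LAC, the glycogen synthase gene Gys1 rose (0.48), and the branching enzyme gene Gbe1 fell (-0.60).

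Mitochondrial genes were called lower more often than higher. Of 29 genes of pyruvate oxidation and the tricarboxylic acid cycle 11 fell and 2 rose (median -0.14), but 7 fell without KO replicate 2, LAC replicate 2 or LAC replicate 3, and 6 with median ratio scaling. Pdhb, a subunit of pyruvate dehydrogenase, fell from 92.9 ± 3.65 to 72.2 ± 2.21 CPM and Pdk4, a kinase that inhibits that enzyme, from 133 ± 5.21 to 105 ± 2.19 CPM (-0.34). Pdk3 (0.49) and Mdh1, the cytosolic malate dehydrogenase (0.36), rose. Of 44 nuclear genes of the respiratory chain 14 fell and none rose (median -0.11), with 1 rise without KO replicate 1; the largest falls were small, -0.44 for Ndufs8 and -0.42 for Ndufv1, both of complex I. Of 13 genes encoded in the mitochondrial genome 8 fell and none rose (median -0.38). Among them mt-Nd6 was 246, 220.5 and 272 CPM in KO and 133, 157 and 156 CPM in LAC, and mt-Co2 fell by 0.52. Of 35 genes of the mitochondrial ribosome 13 fell and none rose, led by Mrpl9 (-0.45) and Mrps31 (-0.43) among those that kept their call without each library in turn. The falls numbered 9 to 12 when each library was left out in turn. Cytosolic ribosomal protein genes fell in 36 of 45 cases and rose in none (80.0% lower against 21.0% of all genes). Leaving out each library in turn gave 24 to 33 falls. The changes were small: the median was -0.21 and the largest fall -0.37 for Rpl37, from 135 ± 16.8 to 104 ± 3.995 CPM.

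Genes that write and remove acyl marks on histones were called less often than genes at large. The median was -0.18 for acyltransferases (11 of 14 below 0) and -0.13 for deacylases (10 of 16 below 0). The largest changes of the 2 lists, Naa60 (-1.8) and Hdac10 (-1.12), were not called. Of 14 acyltransferase genes 2 fell, Kat2a (-0.46) and Kat5 (-0.36), and none rose, with 1 rise without KO replicate 1. Ep300, which can transfer lactyl groups, was 116, 105 and 96.05 CPM in KO and 118, 119 and 114 CPM in LAC (log2 fold change 0.15, 95% interval 0.02 to 0.28, adjusted p = 0.0701). Its close relative Crebbp was 88.2 ± 10.7 and 82.3 ± 3.75 CPM (adjusted p = 0.36). Of 16 deacylase genes 1 rose, Hdac9 (0.67), from 0.43 ± 0.189 to 1.26 ± 0.0491 CPM, near the limit of detection in KO. Its call was lost with a pseudocount of 5 and with quantile normalization. The 3 that fell were Hdac7 (-0.50), Sirt2 (-0.24) and Hdac1 (-0.18). The calls of these 3 each depended on single libraries: Hdac7 was not called without KO replicate 1 or LAC replicate 3 (adjusted p up to 0.0955), Sirt2 not without KO replicate 1 (0.063) and Hdac1 not without KO replicate 2 or LAC replicate 1 (up to 0.0756), while 2 rose without KO replicate 1. Hdac2 and Hdac3, which can remove lactyl groups, were not called (adjusted p = 0.155 and 0.17).

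Antioxidant genes fell more often than genes at large, with 20 of 33 lower (60.6%) and 5 higher (median -0.22). Slc7a11, the cystine importer that feeds glutathione synthesis, was 80.1, 82.4 and 86.9 CPM in KO, 29.1, 26.2 and 32.1 CPM in LAC and 51.5, 49.9 and 47.5 CPM in ACT. The LAC libraries lay below both other groups (log2 fold change -1.48, SE 0.0835, adjusted p = 5.76e-09). The glutathione transferase genes Gsta3 (-1.88) and Gsta1 (-1.51) fell. Both are also known from hepatocytes, whose markers fell by more (median -3.05), and that part was not tested. Further members were named after their values were seen. Srxn1, sulfiredoxin, which repairs oxidized peroxiredoxins, was 391, 396 and 395 CPM in KO and 193, 195 and 194 CPM in LAC. Osgin1 was 44.8, 45.5 and 42.2 CPM in KO and 22.6, 18.3 and 17.99 CPM in LAC, and Prdx6, a peroxiredoxin, 176, 174 and 172 and 91.6, 64.4 and 82.4 CPM. Neither overlapped between the groups, and the log2 fold changes were -1.02 for Srxn1, -1.14 for Osgin1 and -1.13 for Prdx6. Gstm1 (-0.72) and Gsta4 (-1.35) fell too. Gpx3, the secreted glutathione peroxidase, went the other way, with 164, 173 and 147 CPM in KO, 434, 415 and 416 CPM in LAC and 68.1, 65.8 and 67.2 CPM in ACT, and Gpx1, Gpx8, Prdx2 and Prdx5 rose by 0.53, 0.38, 0.25 and 0.22.

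The antioxidant response element, bound by the factor Nrf2, controls many of these genes, so promoter windows of 250 bases before the start were searched on either strand for its core. The core TGACNNNGC was found in 8 of 34 windows of the list (23.5%) and in 10.2% of all 32851 windows, where 27 of 33 members had an entry. Of the members with the core Gclm (-0.61), Gsta3 (-1.88), Sod1 (-0.53) and Txnrd1 (-0.21) fell. Gstm5, Mgst1, Mt2 and Prdx1 had the core as well and were not called. A form with more fixed bases, TGANTCAGC, partly overlaps the core. It was chosen after the promoter of Srxn1, a member of the list, had been seen. It was in 4 of 34 windows (11.8%), those of Mt2, Osgin1, Prdx1 and Srxn1, and in 335 of all windows (1.02%). Osgin1 (-1.14) and Srxn1 (-1.02) fell, but the core was not found in their windows. Mt2 (0.02) and Prdx1 (0.07), which hold this form too, were not called. Capitals mark this form below, on the plus strand of Srxn1 (chr2:152105274-152105523, 45 bases before the start) and as its reverse complement in Osgin1 (chr8:119436897-119437146, plus strand, 99 bases before the start).
Srxn1: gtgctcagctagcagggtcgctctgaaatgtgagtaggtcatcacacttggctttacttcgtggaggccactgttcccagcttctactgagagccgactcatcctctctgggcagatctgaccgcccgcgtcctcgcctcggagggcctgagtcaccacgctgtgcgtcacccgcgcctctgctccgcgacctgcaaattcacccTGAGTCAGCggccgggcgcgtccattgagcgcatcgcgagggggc
Osgin1: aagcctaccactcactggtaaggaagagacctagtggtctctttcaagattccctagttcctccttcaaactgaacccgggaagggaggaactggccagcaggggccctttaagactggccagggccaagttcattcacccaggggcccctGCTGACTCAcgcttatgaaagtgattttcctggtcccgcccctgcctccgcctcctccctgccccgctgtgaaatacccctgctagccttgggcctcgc
A match of letters is given as a description and was not tied to binding in these cells.

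Genes of the integrated stress response, protein folding and DNA replication were called lower more often than higher, and mitosis genes higher. Of 33 genes of the integrated stress response and serine synthesis 13 fell and 5 rose, with Slc7a5, a transporter of large neutral amino acids, at 99.1, 105 and 96.7 CPM in KO and 54.7, 56.7 and 47.4 CPM in LAC, and rises of Vldlr (1.19), Nupr1 (0.88), Atf3 (0.69), Aldh1l2 (0.53) and Cebpb (0.35). Genes of protein folding in the endoplasmic reticulum were lower in 11 and higher in 1 of 23 cases (7 and 2 with median ratio scaling), with Sdf2l1 (-0.51), Herpud1 (-0.44) and Creld2 (-0.43) lower and Edem1 (0.33) higher. Of 27 immediate early genes, which cells switch on within minutes of a stimulus, 4 rose and 9 fell. The rises were Egr2 (0.89), Atf3 (0.69), Egr1 (0.30) and Dusp1 (0.23). Among the falls were Fosb (-1.65), Klf2 (-1.01) and the heat shock genes of that list, Hspa1a from 29.97 ± 2.21 to 7.400 ± 0.872 CPM and Hspa1b from 37.9 ± 1.82 to 11.7 ± 0.554 CPM, near-identical copies whose reads cannot be separated. Mitosis genes rose in 9 of 37 cases and fell in none, close to the 20.0% of all genes, with Anln, a scaffold of cytokinesis, from 99.8 ± 1.92 to 159 ± 2.56 CPM (0.66) and Cenpf, a kinetochore protein, from 16.2 ± 1.66 to 25.8 ± 2.16 CPM (0.64). Without KO replicate 1 there was 1 fall. DNA replication genes fell in 11 of 36 cases, for example Mcm5 of the replicative helicase (-0.55) and Uhrf1 (-0.54), and 1 rose, Tk1 (0.48). That count was 7 without KO replicate 1 or 3 and 6 without LAC replicate 1 or 2 or with median ratio scaling, and Tk1 was not called without KO replicate 2 or 3 or any LAC replicate (adjusted p up to 0.149). Mki67, the marker of cycling cells, named after its values were seen, was 139.7, 132 and 127 CPM in KO and 161, 161 and 164 CPM in LAC (0.28, adjusted p = 4.22e-04).

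Inflammatory genes were split. Among 31 chemokine, cytokine and prostaglandin genes 13 rose and 10 fell (median 0.02). Ccl6, a macrophage chemokine, was 6.203, 5.104 and 4.12 CPM in KO and 96.8, 99.8 and 98.9 CPM in LAC, Ccl9 rose by 2.92 and Il1rn, the interleukin 1 receptor antagonist, by 2.11, in company with the macrophage markers. Il6, which stellate cells also secrete, was 2.47, 2.47 and 2.22 CPM in KO, 16.6, 20.1 and 14.9 CPM in LAC and 9.46, 10.3 and 8.95 CPM in ACT, highest in LAC. Ptgs2, the inducible cyclooxygenase, named after its values were seen, was 306, 261 and 306 CPM in KO, 609, 584 and 634 CPM in LAC and 278, 262 and 264 CPM in ACT (log2 fold change 1.07, adjusted p = 3.85e-06). Arg1, the arginase of alternatively activated macrophages and a gene discussed as a target of histone lactylation, was 6.801, 6.92 and 8.68 CPM in KO and 103, 103 and 100.2 CPM in LAC against 1390 ± 16.8 CPM in ACT. Of the 7 genes of alternative activation it rose with Chil3, which was listed at 0 in every KO library and at 3.91, 4.08 and 4.28 CPM in LAC, at least 10.4-fold higher when KO is set to the level of 3 reads per library. Mrc1 (-1.04), Cd163 (-1.06) and Il4ra (-0.45) fell, and Mrc1 is known from sinusoidal endothelium too.

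**Figure D5:**
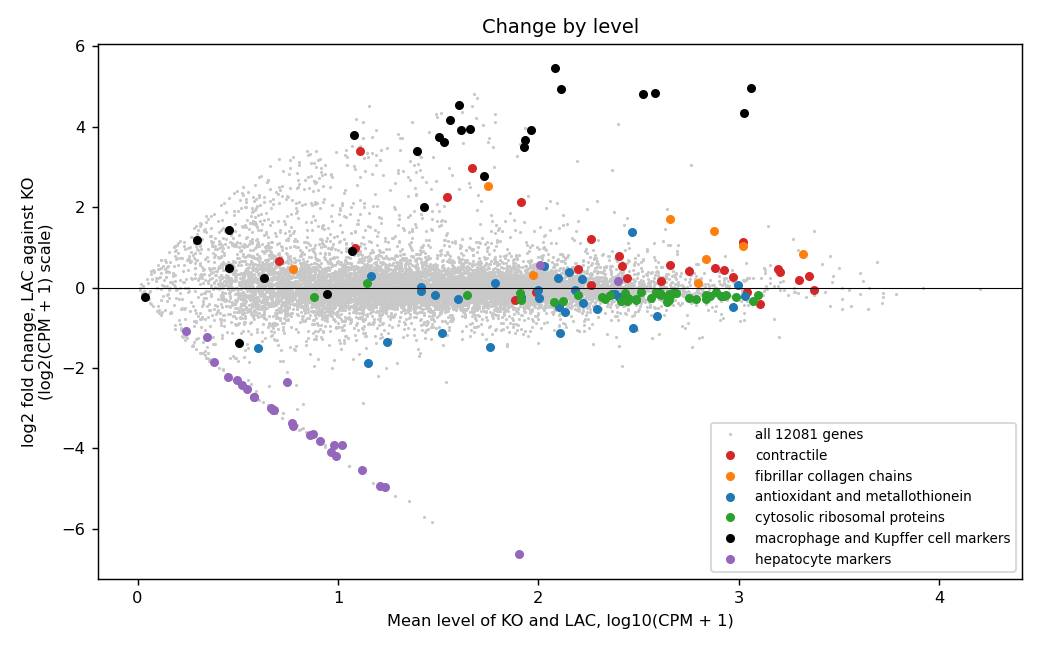
Log2 fold change of all 12081 genes, LAC against KO, over the mean level of both groups (log10(CPM + 1)), with 6 gene lists in colour. Macrophage markers lie up to 5.45, hepatocyte markers down to -6.64, contractile genes and fibrillar collagens mostly above 0, and ribosomal protein genes just below 0 at high levels.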

How the data were processed

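The deposited table holds CPM, which the authors made from reads of a stranded poly(A) kit, for 12081 genes in 12 libraries. It was recorded as a signal because some deposited column totals exceed what plain CPM can sum to. Tools named in the submitters' processing notes are kallisto 0.44.0, edgeR 3.8, cutadapt 1.18 and FastQC 0.11.8, with the build mm10; their roles are not given in the sources used here. No listed gene fails a filter of 1 CPM in 3 or more libraries. Whole reads could not be recovered (19.6% to 25.6% of values lay within 0.01 of a whole read), so no count test was run, and depth was estimated from the CPM worth of a single read. Groups and replicate numbers came from the titles.

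Differences were tested on log2(CPM + 1) in R 4.3.3 with limma 3.58.1, using a mean for each of 4 groups over all 12 libraries (8 residual degrees of freedom), a trend in the moderation and Benjamini-Hochberg adjustment over all genes. The script was tested on simulated data. The comparison and the members of the 46 gene lists were chosen with earlier results of these data known. The rule for named genes took the 15 top rises and 15 top falls of called genes that reach a mean of 5 CPM in 1 group and whose libraries do not overlap, leaving out predicted genes, at most 4 called genes of each list by size of change, and 32 genes fixed by name. Members behind a count of 5 or fewer, and others marked so in the text, were named after their values were seen, and a few genes that these rules take are not reported here. Lists carry counts and medians and no test of their own. Coordinates are from GENCODE M21 (11887 symbols matched 1 gene) and promoters from RefSeq, GRCm38.p6. Genes with near-identical copies (Mup, Serpina1, Ifit, Hspa1) share reads. Alternatives were pseudocounts of 0.1, 0.5 and 5, a filter of 5 CPM, 3 other scalings, a replicate block, models of only KO and LAC or of these and ACT, other moderation, library weights, no marker genes, an adjusted p under 0.01 and leaving out each KO and LAC library.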

Additional observations from a re-analysis of the deposited data

How the results depend on the processing

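The 21 alternatives kept the counts of genes higher and lower in LAC within 1.5 times, except that an adjusted p under 0.01 left 1681 lower. A pseudocount of 5 left 349 genes at least 2-fold higher and 113 at least 2-fold lower. The counts were 2809 higher and 1997 lower with median ratio scaling, and 2263 and 2856 with quantile normalization. Leaving out each library in turn gave 2096 to 2327 higher, 2108 to 2411 lower, 597 to 633 at least 2-fold higher, 261 to 285 at least 2-fold lower, and a log2 fold change of 0.56 to 0.72 for Hk2. Same-numbered KO and LAC libraries did not deviate together (correlations of 0.035, 0.008 and 0.019 over genes). Such values cannot settle, with 3 libraries a group, whether same-numbered libraries share a mouse or culture. With the number as a replicate block 2397 genes were higher and 2538 lower, 618 and 268 of them at least 2-fold, the change of Hk2 was 0.64, and Mrps26 and Tk1 lost their calls. Of 271 called named genes none reversed, 237 were called under each alternative and 244 without each library in turn; the causes of the lost calls were not tested. Scaling moved the median of all genes from -0.02 to at most 0.02 and at least -0.06, and turned the sign of the medians of TGF-beta, p53, sterol, fatty acid synthesis, immediate early and lymphocyte and neutrophil genes. Levels near 3 reads (a mean of 0.391 CPM in KO and 0.307 CPM in LAC) limit the precision of low genes, by counting error alone.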

Other observations

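Lipid and interferon genes were not part of the comparisons above. Of 27 genes of fatty acid synthesis and storage 8 rose and 6 fell. Lpl, lipoprotein lipase, rose from 179.6 ± 9.17 to 693 ± 12.3 CPM and Fabp5, a fatty acid binding protein, from 66.6 ± 4.84 to 196 ± 11.9 CPM, and both are also expressed by macrophages. Cd36, a fatty acid importer, was 395, 408 and 445 CPM in KO, 105, 108 and 108 CPM in LAC and 186, 235 and 364 CPM in ACT, so it was lowest in LAC (log2 fold change -1.95, limma adjusted p = 4.09e-07). Of 24 genes of fatty acid oxidation 6 fell and 1 rose, Cpt1a (0.35), the entry step into mitochondria, and 3 fell with median ratio scaling. Sterol synthesis and uptake genes rose in 5 of 23 cases, among them Sqle (0.47) and Hmgcs1 (0.25), and 3 rose without KO replicate 2 or LAC replicate 3.

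Interferon response genes were higher in 8 and lower in 4 of 31 cases (2 fell without LAC replicate 2). Oas3 was 0.288, 0 and 0.159 CPM in KO and 5.42, 4.67 and 4.81 CPM in LAC, Oas2 rose by 1.16 and Irf1 fell by 0.40. Genes induced by the tumour suppressor p53 were higher in 8 and lower in 12 of 28 cases, with Cd80 (1.37) and Perp (1.12) higher and Plk3 (-0.69) and Bbc3 (-0.65) lower. Macrophage markers rose too, and their part in the rise of Cd80 was not tested. Hypoxia targets were higher in 9 and lower in 4 of 22 cases, but only 5 rose without KO replicate 2, LAC replicate 1 or LAC replicate 2. Bnip3, a mitophagy receptor, was 37.6, 37.2 and 41.02 CPM in KO and 64.3, 65.8 and 69.3 CPM in LAC (0.77), while Ndrg1 fell from 91.2 ± 3.21 to 45.4 ± 0.253 CPM (-0.99) and Epas1, the gene of HIF-2 alpha, by 0.68. Among the cell cycle inhibitors Cdkn2a was 5.21, 4.45 and 5.55 CPM in KO and 12.96, 10.6 and 12.2 CPM in LAC, without overlap (1.09), and Cdkn1a, which encodes p21, fell by 0.24.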
